A study of Arabidopsis thaliana with 8 samples.

Results

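The 6 loci described here, AT1G58025, AT1G59930, AT1G36240, AT5G26270, AT2G15560 and AT4G29200, are protein-coding genes of Arabidopsis thaliana whose array signal was low or at background in wild-type inflorescences and high in ddm1-2. They were chosen by name from the contrast of ddm1-2 with Col-0, as 6 of 12443 tested probe sets that represent 1 protein-coding locus and of 22746 tested in all. Each has 1 probe set, a group of short array probes read as 1 value. RNA came from inflorescences with flowers of stages 9 to 12, pooled (n = 3 in the labels), and 6 ug of it went to each Affymetrix ATH1 array. There were 4 genotypes with 2 biological replicates each: the double mutant ddm1-2 rdr6-15, the single mutants ddm1-2 and rdr6-15, and Col-0, the wild type. All plants were grown in long days and none received a treatment. The labels give no age, no lesion for either allele and no generation of homozygosity.

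DDM1 is a chromatin remodeller of the SWI/SNF type that lets DNA methyltransferases reach nucleosome-bound heterochromatin, and plants without it lose methylation and transcribe many transposons. A small number of coding genes that carry such methylation are transcribed as well. RDR6 copies cleaved transcripts into double-stranded RNA, which Dicer enzymes cut into secondary small interfering RNAs. In ddm1 mutants transposon transcripts can enter this RDR6 route, which is the subject of the study. For the 6 loci, the annotation tables used here give a locus tag and the protein-coding class but no product name, so no function is assigned to them.

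Signal is given as the deposited log2 value, in which 1 unit is a 2-fold difference. For the background, the array carries 27 probe sets against Bacillus RNA that plant tissue does not contain; averaged over the arrays they gave 2.27 to 2.76, and 1 gave 3.56. Genotype means of no more than 3.56 are referred to as control level. In Col-0 this applied to 46.5% of the probe sets tested. Median signal per array was between 3.73 and 3.81. The array of rdr6-15 replicate 1 stood apart: its correlation with the others across probe sets was 0.852 to 0.879, against at least 0.944 among the remaining 7 arrays. Results without it are given for the 6 loci and, where a count or median moved, for other genes.

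The loci behaved in 2 ways. In 5 of the loci, signal was at or near background in both genotypes with DDM1 and far above it, with no overlap of arrays, in both genotypes without DDM1, whether or not RDR6 was present. The other, AT4G29200, was above background in ddm1-2 alone. The values by array follow.

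AT1G58025 gave 10.59 and 10.58 in ddm1-2 rdr6-15 and 11.08 and 10.99 in ddm1-2. The same probe set gave 2.97 and 2.76 in rdr6-15 and 3.04 and 3.08 in Col-0. The ddm1-2 genotypes were high and the others at control level, with no overlap, and the replicates of the double differed by 0.0094, the smallest of the 24 gaps between replicates of these loci.

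AT1G36240 gave 8.17 and 9.41 in ddm1-2 rdr6-15 and 9.03 and 9.41 in ddm1-2. It gave 2.78 and 2.88 in rdr6-15 and 3.22 and 2.82 in Col-0. The step between genotypes with and without DDM1 was far larger than the gap of 1.24 between the replicates of the double, which was the second largest of the 24 and above the gap exceeded by 5% of all probe sets in that genotype (0.630).

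AT5G26270 gave 8.58 and 8.97 in ddm1-2 rdr6-15 and 9.17 and 9.15 in ddm1-2. It gave 3.52 and 3.00 in rdr6-15 and 3.02 and 3.11 in Col-0. Both genotypes lacking DDM1 were high on every array. In the TAIR10.1 reference table the span of a long noncoding RNA gene, AT5G04225, lies within that of AT5G26270, and the signal could not be divided between them here.

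AT2G15560 gave 8.29 and 8.62 in ddm1-2 rdr6-15 and 8.62 and 8.90 in ddm1-2. It gave 2.70 and 2.31 in rdr6-15 and 3.13 and 3.46 in Col-0. Here too the arrays without DDM1 were well separated from those with it, and the double and ddm1-2 overlapped.

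AT1G59930 gave 8.43 and 8.77 in ddm1-2 rdr6-15 and 10.17 and 9.97 in ddm1-2. It gave 4.12 and 3.81 in rdr6-15 and 3.96 and 4.52 in Col-0. This was the 1 locus above control level in every genotype, and the double was below ddm1-2 on every array. Its probe set is of the type _x_at, whose probes can bind related sequences, so its signal cannot be assigned to this locus alone. The other 5 loci have probe sets of the plain type _at.

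AT4G29200 gave 2.38 and 2.60 in ddm1-2 rdr6-15 and 5.92 and 7.18 in ddm1-2. It gave 2.96 and 2.57 in rdr6-15 and 2.96 and 2.51 in Col-0. Only the ddm1-2 arrays were above control level, and the arrays of the other 3 genotypes overlapped. The 2 ddm1-2 replicates differed by 1.26, the largest of the 24 gaps.

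**Figure D1:**
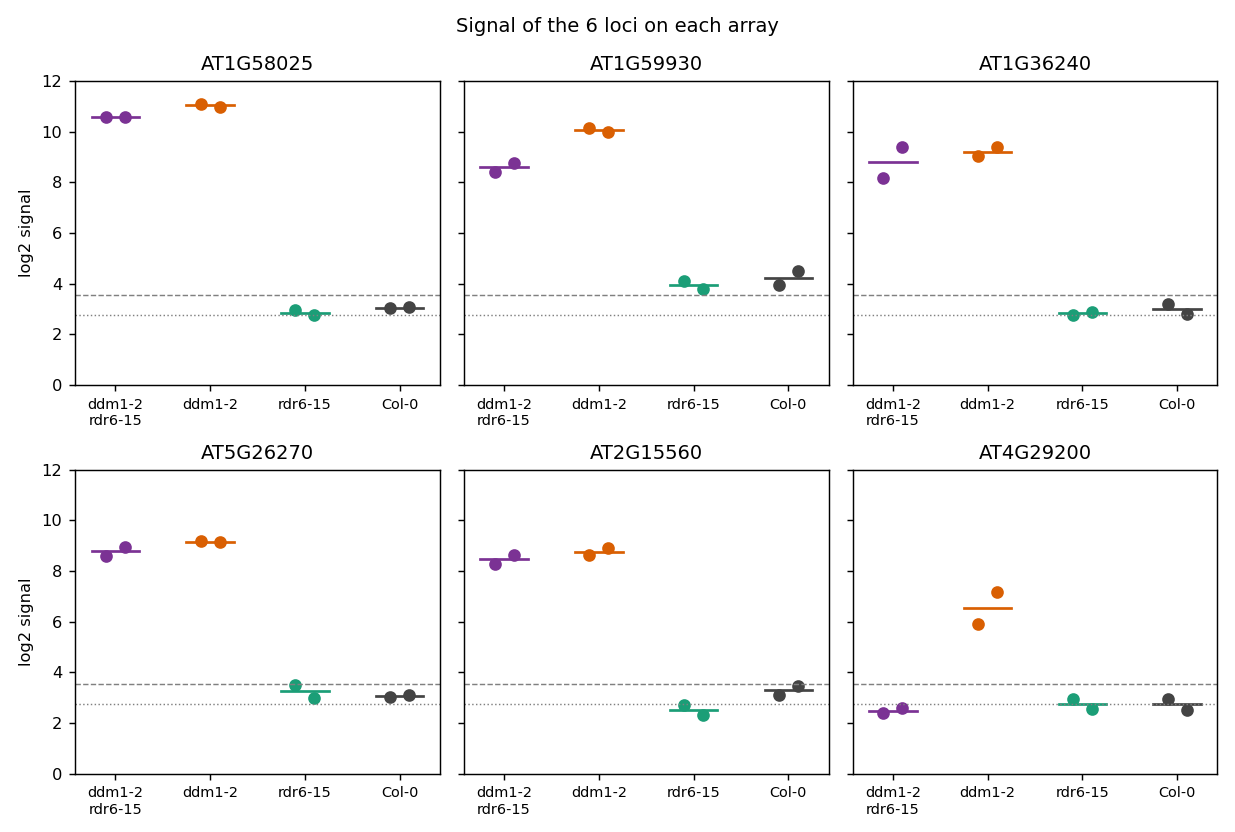
Log2 signal of each of the 6 loci on the 8 arrays (points, 2 replicates per genotype; bars, genotype means), with the genotypes on the x axis. The dashed line is the control level of 3.56 and the dotted line the second highest control mean of 2.76. AT4G29200 is at control level in the double mutant, where the other 5 loci lie between 8.17 and 10.59.

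How low "low" is depends on the limit. With the limit of 3.56, 5 of the 6 loci were at control level in rdr6-15 and 5 in Col-0, and 1 was in the double. With the second highest control mean, 2.76, as the limit, 1 of 6 was at control level in rdr6-15 (AT2G15560) and 1 in Col-0 (AT4G29200), and 1 was in the double. The Col-0 means of the 5 loci were 2.74 to 3.30, so a weak wild-type signal was not separable from background on these arrays.

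The contrast of ddm1-2 with Col-0 chose the loci, so its values describe them and test nothing. All 6 were called higher there by limma, against 0.404% of all probe sets (92 of 22746). As measured, their differences were the 6 highest of the 12443 coding probe sets. Among all 22746 probe sets, where those without a listed gene are included, they ranked between 5 and 49. AT1G58025 differed by 7.98, AT1G36240 by 6.20, AT5G26270 by 6.10, AT1G59930 by 5.83, AT2G15560 by 5.47 and AT4G29200 by 3.81 log2 units. The lowest of these stood next to the coding locus just outside the list, AT3G30720 (QQS), with 3.34. With Col-0 values below control level raised to it, the differences were at least 7.48 for AT1G58025, 5.66 for AT1G36240, 5.61 for AT5G26270, 5.21 for AT2G15560 and 2.99 for AT4G29200, so the order of AT4G29200 and QQS depends on values at control level. In whole inflorescences, more transcript per cell and more cells that express a locus cannot be told apart.

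The double mutant against rdr6-15 asks whether the rise holds when RDR6 is lost too, and it shares no array with the contrast above, though the spread in the model comes from all 8 arrays. Of the 6 loci, 5 were called higher (limma, adjusted p under 0.05), against 0.163% of all probe sets, and AT4G29200 was not. AT1G58025 rose by 7.72 log2 units (SE 0.16, adjusted p = 1.23e-05), which is at least 130-fold when rdr6-15 values below control level are raised to it. All such bounds in this text compare genotype means and leave out the spread between replicates. AT1G36240 rose by 5.96 (SE 0.40, adjusted p = 0.00171), at least 37.6-fold. AT2G15560 rose by 5.96 (SE 0.23, adjusted p = 9.51e-05), at least 29.9-fold. AT5G26270 rose by 5.51 (SE 0.23, adjusted p = 0.000115), at least 37.2-fold. AT1G59930, measured above control level on both sides, rose by 4.63 (SE 0.25, adjusted p = 0.000488), which is 24.8-fold.

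AT4G29200 had means of 2.49 in ddm1-2 rdr6-15 and 2.77 in rdr6-15, a difference of -0.27 (95% interval -1.24 to 0.70, limma adjusted p = 0.903). Both means were at control level, so no fold is given.

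The 5 loci that rose were the 5 coding probe sets called in this comparison with all arrays, and their differences ranked 1 to 5 of 12443 coding probe sets. Among all probe sets, where pseudogenes and probe sets without a listed gene are included, they ranked between 5 and 22 of 22746. The median difference of the 6 loci was 5.73, beside -0.01 over all probe sets. Without rdr6-15 replicate 1, 5 of 6 were again called, with differences of 7.83 for AT1G58025, 6.15 for AT2G15560, 5.91 for AT1G36240, 5.77 for AT5G26270 and 4.79 for AT1G59930; there 9 coding probe sets were called higher, and 1180 without rdr6-15 replicate 2. When only the 4 arrays of the genotypes compared were fitted, AT1G36240 was not called (adjusted p = 0.145), with the other 4 still called.

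**Figure D2:**
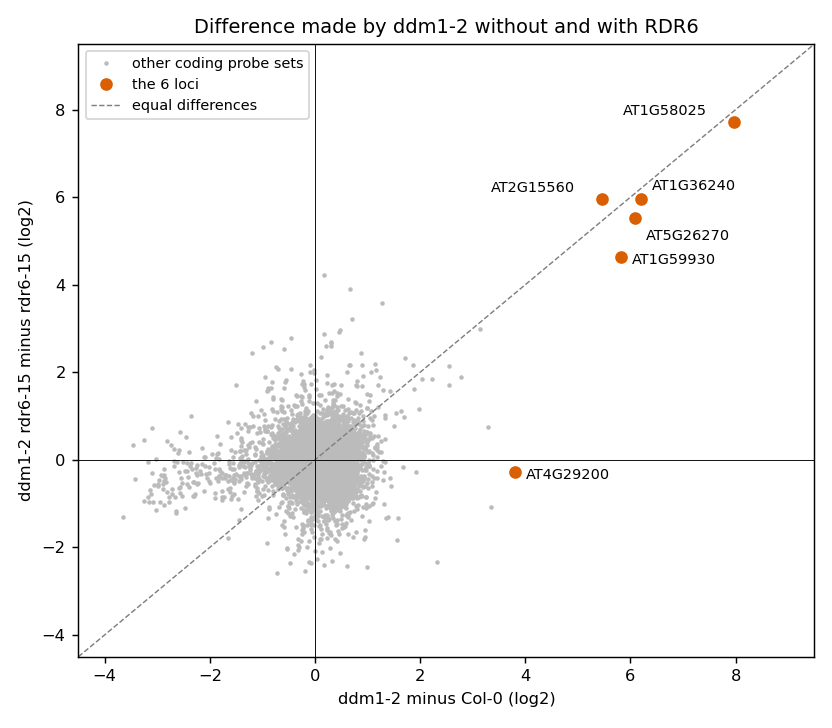
Log2 difference made by ddm1-2 with RDR6 lost (y axis, ddm1-2 rdr6-15 minus rdr6-15) against that with RDR6 present (x axis, ddm1-2 minus Col-0) for 12443 coding probe sets. Of the 6 loci (orange), AT1G58025, AT1G36240, AT5G26270 and AT2G15560 lie nearest the line of equal differences. AT1G59930 lies at 5.83 on the x axis and 4.63 on the y axis, and AT4G29200 at 3.81 and -0.27.

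The rises with RDR6 lost and with RDR6 present can be set side by side. They were 7.72 and 7.98 for AT1G58025, 5.96 and 6.20 for AT1G36240, and 5.51 and 6.10 for AT5G26270. For AT2G15560 they were 5.96 and 5.47, and at least 4.90 and 5.21 with values below control level raised to it, so their order is not settled. For AT1G59930 they were 4.63 and 5.83, and for AT4G29200 -0.27 and 3.81. In limma the difference between the 2 rises passed for 0 of the 6, against 0.00879% of all probe sets. It was -4.08 for AT4G29200 (adjusted p = 0.189), and adjusted p was 0.748 to 0.965 for the others. The rise with RDR6 present chose the loci, so these values describe them and do not show equal rises.

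A second set of coding loci passed the test in ddm1-2 against Col-0 with smaller differences. There were 14 coding probe sets called higher there, the 6 loci and 8 others. Of the 8, 0 were called in the double against rdr6-15 (limma, adjusted p under 0.05), and 6 were above 0. An unadjusted p under 0.05 was found for 5 of the 8, beside 4.84% of all probe sets. Without rdr6-15 replicate 1, and likewise without rdr6-15 replicate 2, 3 of the 8 were called (AT5G03090, AT5G01080 and AT5G15690), against 0.281% and 11.3% of all probe sets called higher. Against Col-0, whose arrays helped to choose them, 7 of the 8 had an unadjusted p under 0.05 in the double, beside 7.79% of all probe sets. With all arrays AT5G01080 came closest, with means of 4.83 in ddm1-2 rdr6-15 and 2.69 in rdr6-15 (difference 2.14, adjusted p = 0.0523). AT5G03090 differed by 1.89 (adjusted p = 0.512) and AT5G15690 by 1.84 (adjusted p = 0.164). AT1G20400 had means of 4.08 in the double and 6.55 in ddm1-2, and differed from rdr6-15 by 0.74 (adjusted p = 0.811). QQS, a gene found only in Arabidopsis thaliana that affects starch content, differed by -1.08 (adjusted p = 0.457). Its means were 5.85 in the double, 7.37 in ddm1-2, 6.93 in rdr6-15 and 4.03 in Col-0, and it was called higher in rdr6-15 than in Col-0 (difference 2.90, adjusted p = 0.0453). Whether the 8 responded differently from the 6 was not tested.

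**Figure D3:**
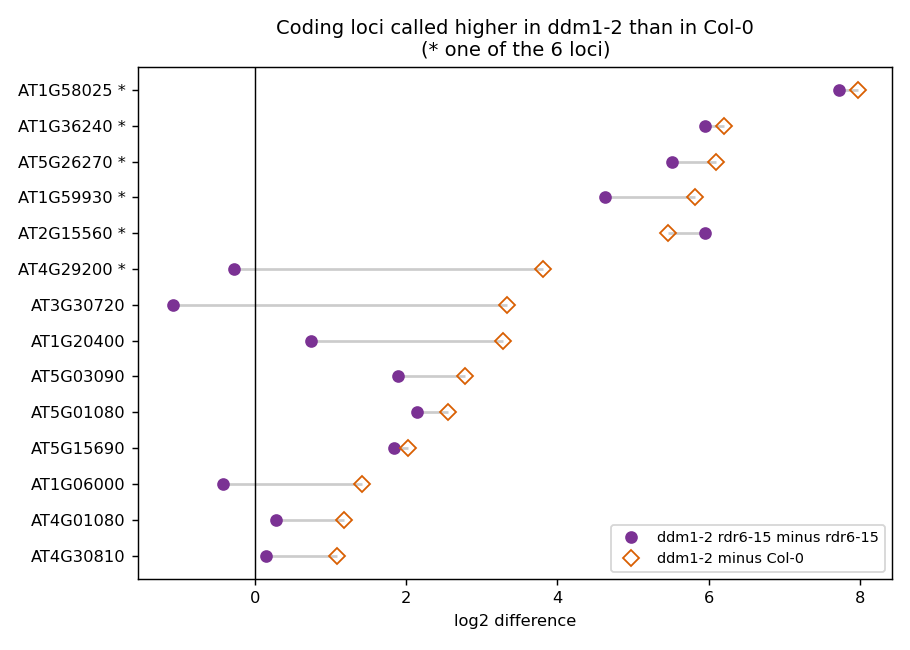
Log2 differences of the 14 coding loci called higher in ddm1-2 than in Col-0, ordered by that difference. Filled circles are ddm1-2 rdr6-15 minus rdr6-15 and open diamonds ddm1-2 minus Col-0. Among the 6 loci (starred), 5 have circles between 4.63 and 7.72, and AT4G29200 has its circle at -0.27.

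The double mutant against ddm1-2 asks whether the signal released by the loss of DDM1 changes when RDR6 is lost as well. It shares the ddm1-2 arrays with the contrast that chose the loci, so a value picked for being high in ddm1-2 can lie lower elsewhere for that reason alone. All 6 differences were below 0, and 1 of the 6 loci was called lower, against 0.0528% of all probe sets. AT4G29200 had means of 2.49 in the double and 6.55 in ddm1-2 and fell by 4.06 (SE 0.41, limma adjusted p = 0.0457). Between means, with values below control level raised to it, the fall was at least 7.96-fold. AT4G29200 was the 1 coding probe set of 12443 called lower. The call was lost without any 1 array of Col-0, of ddm1-2 or of the double, with adjusted p-values of 0.0646 to 0.399, and when probe sets of shared types were left out of the table (adjusted p = 0.139). Without either rdr6-15 array the call was kept (adjusted p = 0.00230 in both cases), and over all alternatives the difference stayed between -4.69 and -3.43.

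AT1G59930 had means of 8.60 in the double and 10.07 in ddm1-2, a difference of -1.47 (95% interval -2.06 to -0.88) that did not pass over all probe sets (unadjusted p = 0.000630, limma adjusted p = 0.377). That adjusted p depended on the fit. It was 0.0627 with only the arrays of the genotypes compared and 0.733 with the replicate number as a block. On the linear scale the double had 36.0% of the ddm1-2 signal. The arrays did not overlap.

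The remaining 4 loci had smaller differences. AT1G58025 had means of 10.58 in the double and 11.04 in ddm1-2, a difference of -0.45 (95% interval -0.82 to -0.08). AT1G36240 differed by -0.43 (95% interval -1.37 to 0.51), and this value became 0.19 without replicate 1 of the double. AT5G26270 differed by -0.39 (95% interval -0.93 to 0.15) and AT2G15560 by -0.30 (95% interval -0.85 to 0.24). In linear signal the double had 73.1%, 74.4%, 76.4% and 81.0% of the ddm1-2 signal at AT1G58025, AT1G36240, AT5G26270 and AT2G15560. Each of the 4 had a limma adjusted p of 0.9999. The unadjusted p was 0.0233 for AT1G58025. Of all 6 loci, 3 had an unadjusted p under 0.05 in this comparison, beside 2.71% of all probe sets. The ddm1-2 arrays helped to choose the loci, so this count describes them and tests nothing. Arrays of the double and ddm1-2 did not overlap at AT1G58025 and AT5G26270. The intervals do not show equal levels.

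**Figure D4:**
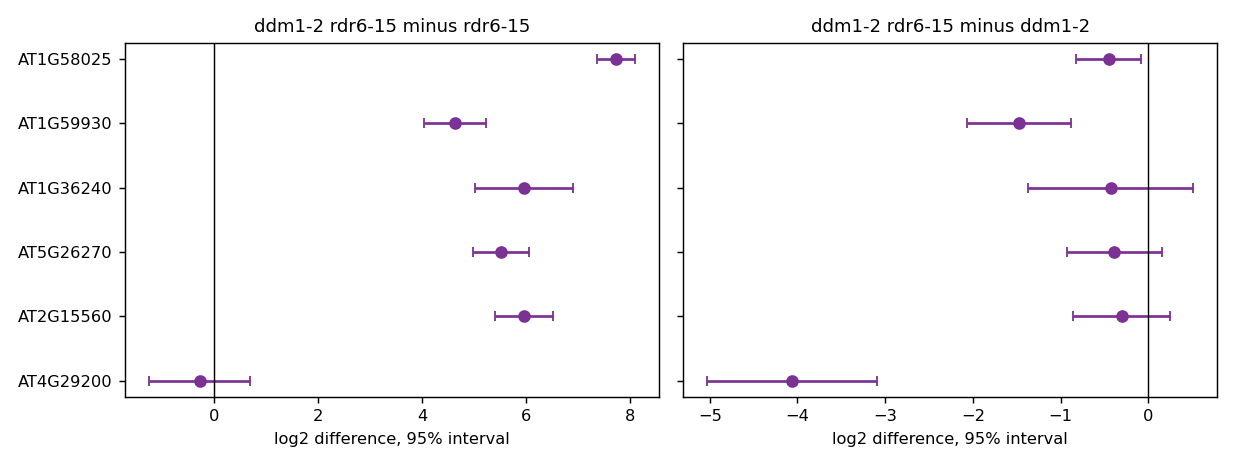
Log2 differences of the 6 loci in ddm1-2 rdr6-15 minus rdr6-15 (left) and in ddm1-2 rdr6-15 minus ddm1-2 (right), with 95% intervals from limma. In the left panel AT4G29200 has an interval of -1.24 to 0.70 and the others lie above 4. In the right panel AT4G29200 is lowest at -4.06, followed by AT1G59930 at -1.47.

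For the loss of RDR6 with DDM1 present, 0 of the 6 loci passed the test, a count that cannot be told from the share of all probe sets. At 5 of the 6 both means were at control level, where a fall could not be measured. The comparison of rdr6-15 with Col-0 shares the Col-0 arrays with the contrast that chose the loci. By limma 0 of 6 were called, against 0.00879% of all probe sets (2 of 22746), and 1 of the 6 had an unadjusted p under 0.05, as did 9.98% of all probe sets (2270). That was AT2G15560, with means of 2.50 in rdr6-15 and 3.30 in Col-0 (difference -0.79, unadjusted p = 0.0115, adjusted p = 0.395), both at control level. AT1G59930, the locus above control level, had means of 3.96 in rdr6-15 and 4.24 in Col-0 (difference -0.28, 95% interval -0.87 to 0.31). The other differences were between -0.20 and 0.19. Without rdr6-15 replicate 1 the count was again 0 of 6.

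Against Col-0, whose arrays helped to choose the loci, the double mutant had differences of 7.53 for AT1G58025, 5.77 for AT1G36240, 5.71 for AT5G26270, 5.16 for AT2G15560 and 4.35 for AT1G59930. AT4G29200 differed by -0.25. With Col-0 values raised to control level the first 4 were at least 7.03, 5.23, 5.22 and 4.90. Within each locus the order of levels was the same for the 4 with the smallest differences between ddm1-2 and the double: ddm1-2 highest, the double next, and rdr6-15 and Col-0 at control level. At AT1G36240 and AT2G15560 the arrays of the 2 highest genotypes overlapped.

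The surroundings of the loci were examined through the order of genes in the TAIR10.1 table. Their tags place 3 of the loci on chromosome 1 and 1 each on chromosomes 2, 4 and 5. Of the 24 genes that stand 2 before and 2 after each locus in that order, among them AT5G04225 within the span of AT5G26270, 14 are protein coding and 5 pseudogenes. The pseudogenes lie beside AT1G58025 (AT1G58010 and AT1G58020) and AT1G36240 (AT1G36225, AT1G36250 and AT1G36260), and none of them has a probe set listed. A probe set was listed for 5 neighbours. In limma 0 of these 5 were called higher in the double against rdr6-15 or in ddm1-2 against Col-0, beside 0.163% and 0.404% of all probe sets. At an unadjusted p under 0.05 there were 0 in either, beside 4.84% and 9.13% of all. Counts of 0 among 5 cannot be told from these shares. AT1G36230, next to AT1G36240, had means of 2.58 in the double, 2.44 in ddm1-2, 2.74 in rdr6-15 and 2.68 in Col-0, all at control level. AT2G15580, the second gene from AT2G15560, was well expressed and had means of 6.88 in the double and 7.31 in rdr6-15 (difference -0.43, limma adjusted p = 0.811). On both sides of AT1G59930, AT1G59910 and AT1G59950 differed by -0.32 and 0.04 between the double and rdr6-15 (adjusted p = 0.829 and 0.966).

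Other coding loci with a similar pattern were found by Pearson's r over the 8 arrays, among 3513 probe sets with a range of at least 1 log2 unit. At the 5 loci that rose in the double, the values fall into 2 groups by the ddm1-2 allele, so r mainly reflects that step. At AT4G29200 it mainly reflects the step between ddm1-2 and the other genotypes. In both cases r is a description. AT5G01080 had the highest r with each of the 5 loci that rose in the double, from 0.980 with AT1G59930 to 0.986 with AT1G36240. Without rdr6-15 replicate 1, AT5G03090 was first for 4 of the 5 (0.987 to 0.992). Over all arrays AT5G41660 followed for AT1G36240 (0.981) and AT5G26270 (0.965). Its means were 5.92 in the double, 6.16 in ddm1-2, 2.93 in rdr6-15 and 3.02 in Col-0. AT5G15690 was among the 3 nearest for 4 of the loci and has a shared probe set of the type _s_at. The loci nearest AT4G29200 were AT3G52500 (0.933), XTH18 (0.924), which encodes a xyloglucan endotransglucosylase/hydrolase of the cell wall, and AT3G29080 (0.917). XTH18 had means of 3.10 in the double, 4.30 in ddm1-2, 2.74 in rdr6-15 and 3.13 in Col-0. These were 18 pairs of a locus and a similar one, with 9 distinct similar loci. Without rdr6-15 replicate 1, 7 of the pairs were named again, covering 3 of the 9, and none of the 3 nearest AT4G29200.

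Lists of silencing genes were largely out of reach, because the probe annotation matched few of them. DDM1 and RDR6 themselves were not matched and were not analysed here, so the genotype labels could not be checked on the targeted genes. For the maintenance of DNA methylation and heterochromatin, 3 of 23 listed loci were matched by 5 probe sets. In limma 0 of the 5 passed in any comparison, with 0 at an unadjusted p under 0.05, beside 2.71% to 9.98% of all probe sets. Counts of 0 among 5 cannot be told from these shares. The median of the 5 in the double against ddm1-2 was 0.15, beside 0.02 over all probe sets. The 3 loci were the linker histone genes AT1G06760 and AT2G30620, and DME, a DNA demethylase gene active in the central cell. AT1G06760 and AT2G30620 had means of 7.97 and 7.88 in the double and 7.61 and 7.80 in rdr6-15. None of the 19 RNA-directed DNA methylation genes was matched. Of 12 genes for secondary siRNAs 1 was matched, AGO7, an Argonaute of the tasiRNA route. Its means were 3.91 in the double, 3.99 in ddm1-2, 3.74 in rdr6-15 and 3.41 in Col-0, and it did not pass in any comparison. In ddm1-2 against Col-0 (difference 0.59, limma adjusted p = 0.522) its unadjusted p was under 0.05, as for 9.13% of all probe sets. Of 10 genes known to be silenced by methylation 1 was matched, QQS.

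Levels of marker genes of other cells differed between arrays. For the tissue itself, 2 of 12 floral identity markers were matched, SPT and UFO, and neither exceeded control level in any genotype, which leaves the tissue label unchecked by them. Of 12 late pollen markers 10 were matched. Their median per array was 4.06 and 2.83 in ddm1-2 rdr6-15, 4.03 and 3.05 in ddm1-2, 2.95 and 5.34 in rdr6-15, and 5.80 and 6.74 in Col-0. By array, 3 and 9 of the 10 were at or below control level in ddm1-2 rdr6-15, 3 and 7 in ddm1-2, 8 and 2 in rdr6-15, and 2 and 1 in Col-0. In ddm1-2 against Col-0 their median difference was -2.77, and in the double against rdr6-15 it was -0.52. By limma 0 of 10 were called in either. Over all 22746 probe sets, 92 were called higher and 39 lower in the first, and 37 and 0 in the second. At an unadjusted limma p under 0.05 there were 9 and 0 of the 10, beside 9.13% and 4.84% of all probe sets. Without rdr6-15 replicate 1 the median in the double against rdr6-15 was -1.77. The 0 in that comparison came with rdr6-15 arrays at medians of 2.95 and 5.34, so it does not show equal levels. Of 6 tapetum and microspore markers 2 were matched, with means of 2.72 to 3.83 over the genotypes. Of 5 leaf markers 1 was matched, the glucosinolate gene BCAT4, at 8.15 on rdr6-15 replicate 1 and at most 3.24 on the other arrays. The part of these shifts in the values of the 6 loci was not tested.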

How the data were processed

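Transcripts were measured on 8 Affymetrix ATH1 arrays, 2 per genotype. The authors deposited log2 signals per probe set, summarised with RMA per the submitters' processing notes (version and options: not given in the sources used here). Of 22810 probe sets, 64 controls were left out. Genes were taken from the platform's annotation (14016 probe sets listed), and 13436 tested probe sets matched 1 locus of the TAIR10.1 table through the gene ID. No coordinates are printed, because the sources name no genome build; gene order and overlap come from the TAIR10.1 table.

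One linear model per probe set, with the 4 genotype means as coefficients, used every array (limma 3.58.1, R 4.3.3, functions lmFit and eBayes; 4 residual and 2.82 prior degrees of freedom). Two-sided p-values received a Benjamini-Hochberg adjustment across the 22746 probe sets tested, and 0.05 was the threshold. The fit was tested on simulated data. The number of arrays limits the precision. Nothing states whether replicates came from separate plantings, so p-values measure the spread between these samples.

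The loci, gene lists and most alternatives were chosen with earlier results of these data known. Leaving out arrays for genes other than the 6 loci was chosen after seeing the data. The naming rule took all 6 loci, the 3 coding loci most like each by r, the 2 genes on either side of each, and members of fixed lists. Relatives of the loci were to be found by product name, which the tables do not hold. No sequences were used here.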

Additional observations from a re-analysis of the deposited data

How the results depend on the processing

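Of 6 loci, 5 were called higher in the double against rdr6-15, and the count was 5 under every alternative except 4 with only the genotypes compared and 4 of 5 without shared probe sets, which remove AT1G59930; leaving out 1 array gave 5 in each case. In the double against ddm1-2 the count of 1 became 0 with the replicate number as a block, without shared probe sets, at an adjusted p under 0.01, and 0 to 1 when 1 array was left out; the cause was not tested. In rdr6-15 against Col-0 it was 0 under all 17 alternatives run. Over all probe sets the calls behind these counts ranged from 11 to 2569 in the double against rdr6-15 (37 in the fit of all arrays), from 0 to 39 in the double against ddm1-2 (12) and from 0 to 5414 in rdr6-15 against Col-0 (2), where 2569 and 5414 both came without rdr6-15 replicate 2. The fit of all arrays did not pair them by replicate number. Differences between replicates correlated at -0.06 to 0.42 between genotypes, with 0.42 for the double and ddm1-2. Whether those 2 genotypes shared an effect of replicate was not tested. With the replicate block AT4G29200 had an adjusted p of 0.141 in the double against ddm1-2, and the block left the other 2 counts at 5 and 0. None of the called differences changed sign. The number of arrays, and signal at control level for most of these loci with DDM1 present, limit what can be resolved.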
